A study of Mus musculus with 16 samples.

Results

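Expression of 10 genes of the NF-kappa-B pathway was examined in the somatosensory cortex of mice: the 5 subunits Nfkb1, Nfkb2, Rela, Relb and Rel, the IkB family genes Nfkbia, Nfkbib and Nfkbiz, the feedback regulator Tnfaip3 and the upstream adaptor Traf6. They were taken by gene symbol and are 10 of the 24421 genes in the deposited tables. The 5 subunits pair with one another to form transcription factors that bind short kappa-B sites in DNA. In a resting cell, IkB proteins such as those made from Nfkbia and Nfkbib hold the dimers in the cytoplasm. Interleukin-1 and Toll-like receptors signal through adaptors, Traf6 among them, to the IkB kinases, which mark the inhibitors for destruction and so free the dimers. Nfkbia and Tnfaip3 are themselves textbook targets of NF-kappa-B, and their products shut the pathway off again.

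The mice were wild-type (WT) C57BL/6 (C57BL/6J in the methods) or AcPb-/- (AcPbKO in the group names), described in the labels as homozygous males bred in-house and aged 2 to 3 months. AcPb is the neuron-specific form of the interleukin-1 receptor accessory protein, which the gene Il1rap encodes. Mice were either undisturbed (CTL) or kept awake by gentle handling from ZT20 to ZT4 (sleep disruption, SD), which is 8 h, and all were collected at ZT4, where ZT0 is lights on in a 12 h light phase. Each of the groups CTL-WT, SD-WT, CTL-AcPbKO and SD-AcPbKO had 3 libraries, and the comparisons asked what SD did in each genotype and what the genotype did in each state. The genotype is a plain -/- with no driver that limits it to a cell type, and nothing in the sources used here ties a library to a litter or a cage.

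Some features of the libraries bear on every value below. Reads on genes ranged from 26504840 to 41615582 in the 6 undisturbed libraries and from 58770286 to 71857505 in the 6 SD libraries, so SD libraries were deeper throughout and depth and SD cannot be told apart. The undisturbed libraries CTL-WT 2 and 3 and CTL-AcPbKO 4 and 5 held 25352 to 39358 reads of Xist, the RNA made from an inactive X chromosome, and 0 to 2 reads of Y-linked genes, against the label of male mice. The other 8 libraries had 5 to 13 Xist reads, so only 1 undisturbed library per genotype matched the SD libraries in this respect. Il1rap was not lower in AcPb-/- mice: it ranged from 1476.1 to 1519.9 normalized counts in CTL-WT, from 1515.4 to 1647.4 in CTL-AcPbKO, from 1729.2 to 1920.4 in SD-WT and from 1923.3 to 2062.1 in SD-AcPbKO. Since the value counts the whole gene, whose exons share 552 bases with Gm20319 on the other strand, it does not check the loss of 1 form. Markers of cortical excitatory neurons were abundant in every library (summed normalized counts of their 5 genes from 261846 to 344221), whereas SD-AcPbKO 4 had 17742 summed normalized counts of 4 choroid plexus markers against 222 to 522 in the other 11 libraries.

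Each member was measured with 64 to 1751 reads in every library, and all 10 entered every test. Levels between genes were compared as normalized counts per kb of exon. On this scale Nfkbia was highest, with a mean of 540 over the 12 libraries, followed by Nfkbib at 466 and Rela at 334. Traf6 stood at 142, Nfkb1 at 75.7, Nfkbiz at 65.7, Relb at 59.2 and Tnfaip3 at 46.4. Nfkb2 at 29.5 and Rel, the subunit best known from lymphocytes, at 16.7 were the lowest. Thus per kb the messages of Rela and its cytoplasmic inhibitors were the most abundant of the 10, and Relb, Nfkb2 and Rel were the lowest subunits. The length is that of all annotated exons together, 12061 bases for Nfkb1 and 1610 for Nfkbia, and may differ from that of the transcripts made. By mean normalized count alone Traf6 was highest (1122), and Nfkb1 (912) was above Nfkbia (870). These are bulk values, in which fewer cells of a type and less RNA per cell cannot be told apart.

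The promoters of the members that hold a kappa-B site are shown first, since such a site is what lets NF-kappa-B act on its own genes. The windows span 250 bases before to 50 bases after a RefSeq transcription start (build GRCm38.p6), and both strands were searched for the 10-base kappa-B consensus, with overlapping matches merged and no other motif searched. Of the members, 7 have a window, and 4 of them hold a match: Nfkbia, Tnfaip3, Rel and Nfkb2. Among all 32851 windows 8.46% hold one, and among all 27025 genes with a window 9.55% do. The windows of Rela, Nfkbib and Traf6 do not hold these letters, and Nfkb1, Relb and Nfkbiz have no entry. The 4 promoters are written 5′ to 3′ on the gene's strand, with the matches in capitals:
Nfkbia: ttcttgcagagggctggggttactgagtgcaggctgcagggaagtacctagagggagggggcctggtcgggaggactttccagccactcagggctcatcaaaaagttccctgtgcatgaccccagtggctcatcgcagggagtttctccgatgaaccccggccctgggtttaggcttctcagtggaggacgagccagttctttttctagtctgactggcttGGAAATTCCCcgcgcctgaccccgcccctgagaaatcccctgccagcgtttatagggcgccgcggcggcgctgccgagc
Tnfaip3: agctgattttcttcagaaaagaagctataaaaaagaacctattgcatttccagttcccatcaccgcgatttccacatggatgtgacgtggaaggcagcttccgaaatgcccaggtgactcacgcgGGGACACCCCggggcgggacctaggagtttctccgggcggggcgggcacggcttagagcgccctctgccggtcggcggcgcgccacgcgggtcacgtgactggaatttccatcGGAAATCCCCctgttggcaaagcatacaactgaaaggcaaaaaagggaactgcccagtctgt
Rel: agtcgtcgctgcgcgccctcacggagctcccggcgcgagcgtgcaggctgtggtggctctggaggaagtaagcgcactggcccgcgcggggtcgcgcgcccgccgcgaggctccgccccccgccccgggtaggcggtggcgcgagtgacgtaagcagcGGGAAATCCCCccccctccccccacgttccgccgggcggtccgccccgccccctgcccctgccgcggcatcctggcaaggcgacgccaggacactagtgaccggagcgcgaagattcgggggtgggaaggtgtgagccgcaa
Nfkb2: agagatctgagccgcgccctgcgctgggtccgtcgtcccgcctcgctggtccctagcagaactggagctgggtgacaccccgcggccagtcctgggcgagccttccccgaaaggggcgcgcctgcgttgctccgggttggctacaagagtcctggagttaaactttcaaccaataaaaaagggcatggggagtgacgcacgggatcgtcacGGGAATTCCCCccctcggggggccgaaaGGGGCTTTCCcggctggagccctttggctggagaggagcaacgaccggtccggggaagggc

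The Nfkbia window lies at chr12:55492598-55492897 on the minus strand, with its match GGAAATTCCC ending 20 bases before the start. The Tnfaip3 window, at chr10:19015361-19015660 on the minus strand, holds GGGACACCCC and GGAAATCCCC, the second of them 3 bases before the start. The Rel window, at chr11:23770920-23771219 on the minus strand, holds GGGAAATCCCC. The Nfkb2 window, at chr19:46304487-46304786 on the plus strand, holds GGGAATTCCCC and GGGGCTTTCC. A second start of Tnfaip3 lacks a match, and 2 further starts of Nfkb2 hold 2 and 1. The windows of these Nfkb2 starts overlap, and GGGACTTTCC is the same site in both. Such a match is a description of the letters and does not show binding.

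**Figure D1:**
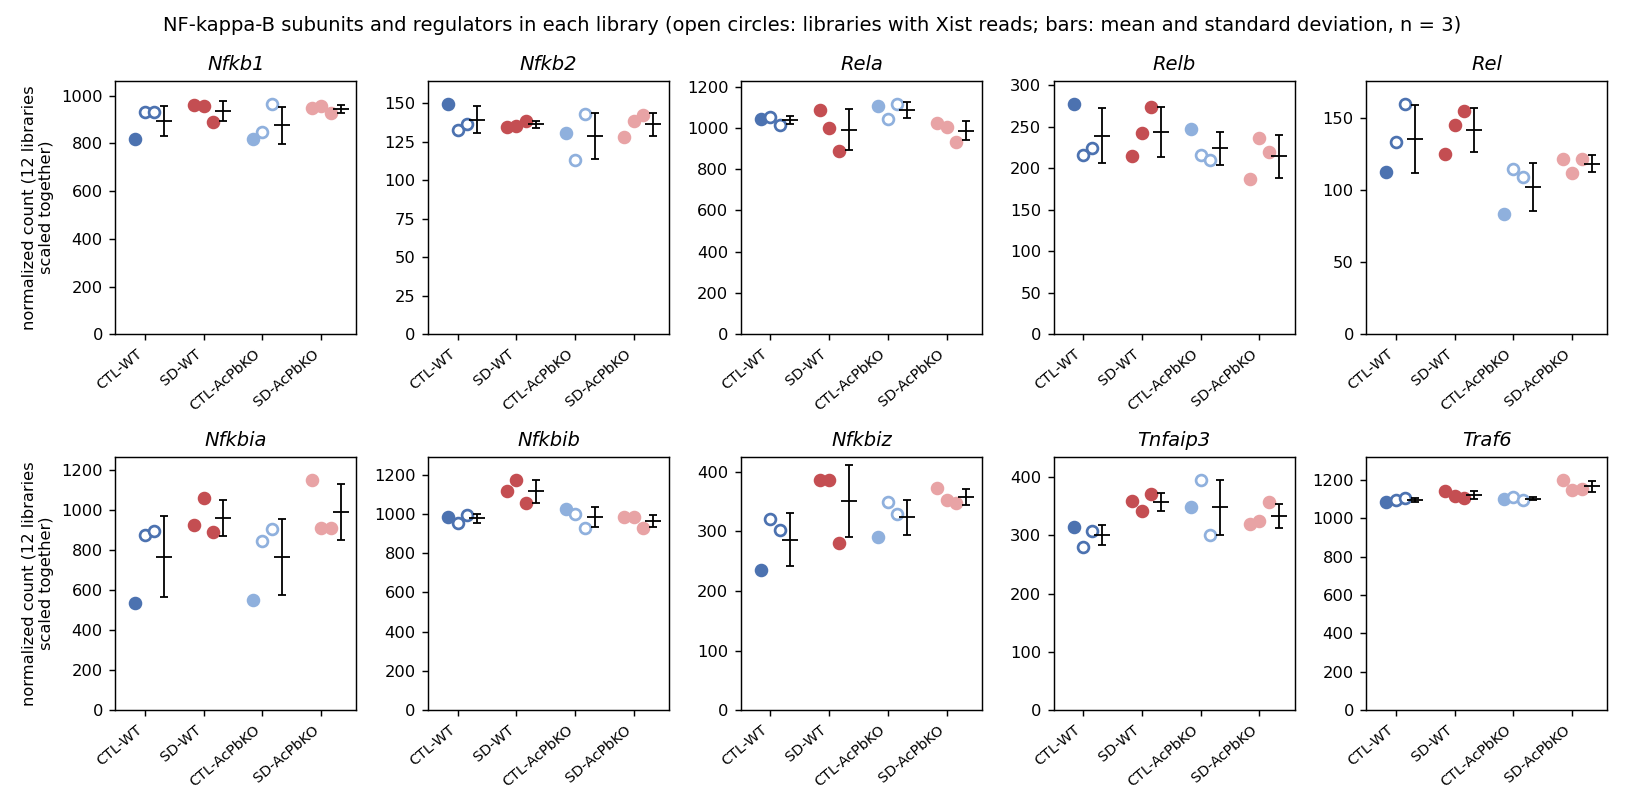
Normalized counts of the 10 members (y axis from 0, all 12 libraries scaled together) in each library of the 4 groups, open circles marking libraries with Xist reads and black bars the mean and standard deviation of 3 libraries. Nfkbia at 534.2 in CTL-WT 1 and 549.2 in CTL-AcPbKO 3 is below the other 10 libraries, whereas Traf6 stays between 1087.4 and 1201.0 throughout.

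The IkB family genes and Tnfaip3 are described first, with the values of all 12 libraries scaled together. Nfkbia encodes IkB alpha, the inhibitor that is degraded and resynthesised fastest when the pathway is switched on, and lies on chromosome 12 from 55489410 to 55492647 (GRCm38, minus strand). Its normalized counts were 534.2, 871.9 and 891.8 in CTL-WT 1, 2 and 3, and 924.0, 1060.6 and 890.1 in SD-WT 1, 2 and 4. In AcPb-/- mice they were 549.2, 842.2 and 905.5 in CTL-AcPbKO 3, 4 and 5, and 1149.9, 908.3 and 907.4 in SD-AcPbKO 2, 3 and 4. The 2 lowest values of the series were those of the undisturbed libraries without Xist reads, 1 in each genotype. The 4 undisturbed libraries with Xist reads came close to the SD libraries, so that the groups overlapped in WT and were separated only by 905.5 against 907.4 in AcPb-/- mice. Accordingly the undisturbed groups were the most scattered: their coefficients of variation were 26.2% in CTL-WT and 24.8% in CTL-AcPbKO, where the medians over 13121 genes with a mean of at least 100 were 5.67% and 6.17%. In CTL-WT, 98.8% of those genes had a lower coefficient of variation than Nfkbia.

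Nfkbib, on chromosome 7 from 28758251 to 28767512, encodes IkB beta, a slower inhibitor than IkB alpha. Its counts were 984.8, 952.2 and 992.4 in CTL-WT against 1116.0, 1173.5 and 1056.0 in SD-WT. They were 1024.1, 1001.1 and 925.4 in CTL-AcPbKO against 981.9, 981.6 and 930.1 in SD-AcPbKO. Every SD-WT library was therefore above all other libraries of the series, whereas the 3 remaining groups overlapped. Between SD-WT and CTL-WT, 40.2% of all genes did not overlap. The share set apart from every other group is not given here. The exons of Nfkbib share 356 bases with Ccer2 and Sirt2 on the other strand, and whether reads were counted by strand is not given in the sources used here.

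Nfkbiz encodes IkB zeta, a nuclear IkB protein that acts as a co-activator of secondary response genes, and lies on chromosome 16 from 55811375 to 55838899. It was at 235.4, 321.1 and 301.7 in CTL-WT and at 385.5, 386.7 and 280.7 in SD-WT. It was at 290.9, 349.6 and 329.7 in CTL-AcPbKO and at 372.5, 353.4 and 346.9 in SD-AcPbKO. As for Nfkbia, the lowest library of each undisturbed group was the one without Xist reads, but SD-WT 4 fell within the range of its controls.

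Tnfaip3 encodes A20, an enzyme that edits ubiquitin chains on Traf6 and other adaptors and so ends the signal. It lies on chromosome 10 from 19000910 to 19015657. Its counts were 313.9, 280.3 and 307.3 in CTL-WT and 359.2, 341.9 and 371.8 in SD-WT, which did not overlap. In AcPb-/- mice they were 348.3, 395.5 and 300.0 undisturbed and 319.0, 325.2 and 357.6 after SD, within the undisturbed range. Unlike Nfkbia, it was not lowest in the undisturbed library without Xist reads in either genotype.

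Among the subunits, Rela, which encodes the main activating subunit p65 (chromosome 19 from 5637483 to 5648130), was at 1041.8, 1052.2 and 1014.8 in CTL-WT and at 1085.7, 998.4 and 889.4 in SD-WT. It was at 1105.0, 1041.8 and 1115.0 in CTL-AcPbKO and at 1024.5, 1002.5 and 932.9 in SD-AcPbKO. The groups overlapped in WT, and in AcPb-/- mice all SD libraries were below all undisturbed ones. Rel, which encodes c-Rel (chromosome 11 from 23736847 to 23770970), had 112.7, 133.8 and 159.8 in CTL-WT, 125.4, 145.2 and 154.8 in SD-WT, 83.5, 114.8 and 108.9 in CTL-AcPbKO and 121.6, 111.9 and 122.0 in SD-AcPbKO. Its lowest library in each undisturbed group was again the one without Xist reads.

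Nfkb1 encodes the precursor of p50, the usual partner of p65 (chromosome 3 from 135584655 to 135691547). It ranged from 820.3 to 932.1 in CTL-WT, from 887.9 to 961.7 in SD-WT, from 816.7 to 965.0 in CTL-AcPbKO and from 926.5 to 958.0 in SD-AcPbKO. Its lowest library in each undisturbed group was again the one without Xist reads, and the share of all genes with this order is not given here. Nfkb2 and Relb encode the p100 precursor of p52 and its partner in the slower, non-canonical branch (chromosome 19 from 46304320 to 46312385 and chromosome 7 from 19606217 to 19629438). Nfkb2 lay between 113.0 and 149.4 in all 12 libraries and Relb between 186.6 and 277.2, and in both genes the 4 groups overlapped. Relb went the other way from Nfkbia among the undisturbed libraries, with its highest values, 277.2 and 246.6, in the ones without Xist reads. The exons of Nfkb2 share 830 bases with Psd and AC114539.1 on the other strand.

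Traf6, the ubiquitin ligase that passes the interleukin-1 and Toll-like receptor signal to the IkB kinases (chromosome 2 from 101678429 to 101701669), varied least among the members in both undisturbed groups. It was at 1087.4, 1097.2 and 1105.3 in CTL-WT, at 1141.6, 1117.9 and 1104.9 in SD-WT and at 1098.5, 1112.4 and 1096.6 in CTL-AcPbKO. After SD in AcPb-/- mice it was at 1201.0, 1145.8 and 1152.1, above all 9 other libraries. Between SD-AcPbKO and CTL-AcPbKO, 42.3% of all genes did not overlap, and the share set apart from every other group is not given here. The coefficient of variation of Traf6 was 0.818% in CTL-WT and 0.784% in CTL-AcPbKO, and 1.81% and 1.60% of the 13121 genes had a lower one.

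Whether SD changed the members in WT mice was tested with limma on the log2 scale of normalized count + 1, with p-values adjusted over all genes of the comparison. None of the 10 members passed an adjusted p of 0.05, where 25.4% of the 20417 genes tested did. The median absolute log2 change was 0.07 over the members and 0.24 over all genes. At an unadjusted p under 0.05 there were 2 members, Nfkbib and Tnfaip3, against 37.3% of all genes, and DESeq2 and edgeR called 0 members at an adjusted p of 0.05. The same 2 members had groups that did not overlap, as did 40.2% of all genes.

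The largest estimate was that of Nfkbia, whose log2 change (SD minus undisturbed) was 0.36 ± 0.17 (standard error), with a 95% interval from -0.02 to 0.73 and an adjusted p of 0.159. Nfkbiz had a log2 change of 0.29 ± 0.16 (adjusted p = 0.209), Tnfaip3 of 0.25 ± 0.10 (adjusted p = 0.0885) and Nfkbib of 0.19 ± 0.07 (adjusted p = 0.0715). The other 6 members had log2 changes from -0.07 to 0.07. For Traf6 the 95% interval ran from -0.11 to 0.17. Single libraries moved these estimates: without CTL-WT 1 the log2 change of Nfkbia was 0.11, and without SD-WT 4 Nfkbib (0.23, adjusted p = 0.0256) and Nfkbiz (0.44, adjusted p = 0.0379) passed the threshold. Nfkbib also passed it where all 4 groups shared 1 fit (0.19, adjusted p = 0.0425, in which 24.3% of genes passed), and its adjusted p ranged from 0.0256 to 0.241 over the alternatives. The count of all genes past the threshold moved as well, from 0 to 6222 over the alternatives against 5186 in the main test. The calls made without single libraries are therefore not read as particular to the members.

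SD in AcPb-/- mice gave the same count. None of the 10 members passed, where 27.4% of 20574 genes did, and DESeq2 and edgeR also called 0. The median absolute log2 change was 0.10 over the members and 0.27 over all genes, and no member had an unadjusted p under 0.05 (38.9% of all genes did). Nfkbia again had the largest estimate, a log2 change of 0.39 ± 0.18 with a 95% interval from -0.02 to 0.81 and an adjusted p of 0.148. Without CTL-AcPbKO 3 it was 0.17. Rel followed with 0.22 ± 0.17 (adjusted p = 0.384), Nfkbiz with 0.15 ± 0.10 (adjusted p = 0.334) and Nfkb1 with 0.11 ± 0.08 (adjusted p = 0.34). Rela was lower, at -0.14 ± 0.07 (adjusted p = 0.18). Nfkbia, Rela and Traf6 had groups that did not overlap, 3 of 10 members where 42.3% of all genes had.

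**Figure D2:**
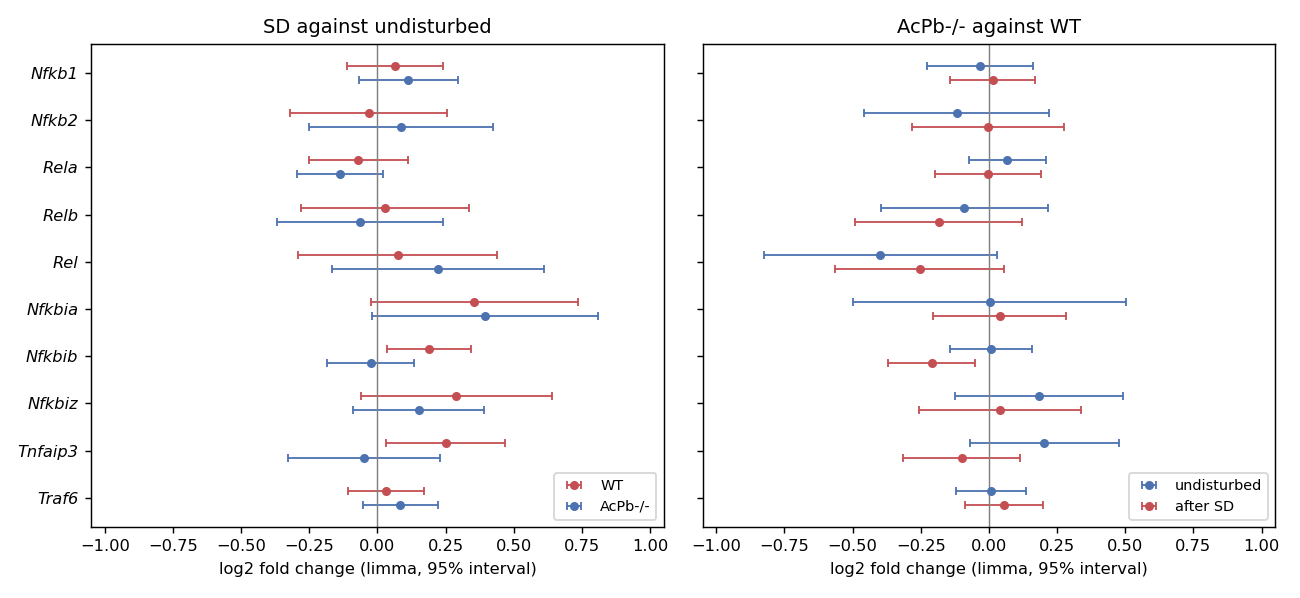
Log2 fold changes of the 10 members with 95% intervals from limma, for SD against undisturbed mice in each genotype (left) and for AcPb-/- against WT mice in each state (right). In the left panel the estimates of Nfkbia, 0.36 and 0.39, are the largest in either genotype, and in the right panel its interval in undisturbed mice, from -0.50 to 0.50, is the widest.

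Since the undisturbed libraries differed in Xist reads, the SD effect was also fitted in all groups at once, either with a covariate marking the Xist libraries (the Xist term) or leaving them out. Leaving them out sets the SD libraries against 1 undisturbed library per genotype. The Xist term keeps all 12 libraries and takes 1 Xist effect for both genotypes. Since every SD library lacks Xist reads, its estimates also lean on the undisturbed libraries without them. These are CTL-WT 1 and CTL-AcPbKO 3, the 2 with the lowest Nfkbia. The mean of Nfkbia after SD was 1.79-fold and 1.80-fold that of these libraries in WT and AcPb-/- mice, but 1.09-fold and 1.13-fold the mean of the undisturbed libraries with Xist reads. With the term, Nfkbia was called higher after SD in both genotypes: its log2 change was 0.82 ± 0.12 in WT (adjusted p = 0.00128) and 0.86 ± 0.12 in AcPb-/- mice (adjusted p = 0.000499), a 1.77-fold and a 1.81-fold higher level. Nfkbiz was called higher in WT (0.50 ± 0.15, adjusted p = 0.0336) and Rel in AcPb-/- mice (0.48 ± 0.16, adjusted p = 0.0467). In these fits 19.3% of genes passed in WT and 24.7% in AcPb-/- mice, against 2 of 10 members in each. Once the Xist libraries were left out, Nfkbia passed in AcPb-/- mice (0.84 ± 0.17, adjusted p = 0.0389; 10% of genes passed) and had an adjusted p of 0.0586 at the same log2 change of 0.84 in WT, where 3.27% of genes passed and no member did. In the latter fit the spread was taken from the SD libraries alone. Over all alternatives run, the adjusted p of Nfkbia ranged from 0.00128 to 0.424 in WT and from 0.000499 to 0.411 in AcPb-/- mice, that of Nfkbiz from 0.0336 to 0.512 in WT and that of Rel from 0.0467 to 0.729 in AcPb-/- mice.

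The SD effect averaged over both genotypes in 1 fit of the 12 libraries was compared as well, a comparison added after the data were seen. Without the Xist term no member passed, where 41.5% of 20978 genes did, and Nfkbia had a log2 change of 0.37 ± 0.15 (adjusted p = 0.0555). It was the 1 member with an unadjusted p under 0.05, as were 48.4% of all genes. DESeq2 (0.35, adjusted p = 0.0275), edgeR (0.35, adjusted p = 0.0436), a minimum mean of 10 (adjusted p = 0.043) and reads thinned to the smallest library (0.40, adjusted p = 0.0303) each placed Nfkbia past the threshold. Its adjusted p ranged from 0.000104 to 0.132 over all alternatives. With the Xist term, which again leaves 1 undisturbed library per genotype as the reference, 4 members were called higher, where 30.8% of genes passed in either direction: Nfkbia by a log2 change of 0.84 ± 0.10 (adjusted p = 0.000104), Nfkbiz by 0.43 ± 0.12 (adjusted p = 0.0177), Rel by 0.41 ± 0.13 (adjusted p = 0.0335) and Nfkb1 by 0.20 ± 0.06 (adjusted p = 0.0341). Without the Xist libraries the averaged estimates are equal to these by construction, so that fit is not a second test of them. Both fits set the SD libraries against CTL-WT 1 and CTL-AcPbKO 3. With the term the other 6 members did not pass, at log2 changes from -0.20 for Relb to 0.07 for Traf6.

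**Figure D3:**
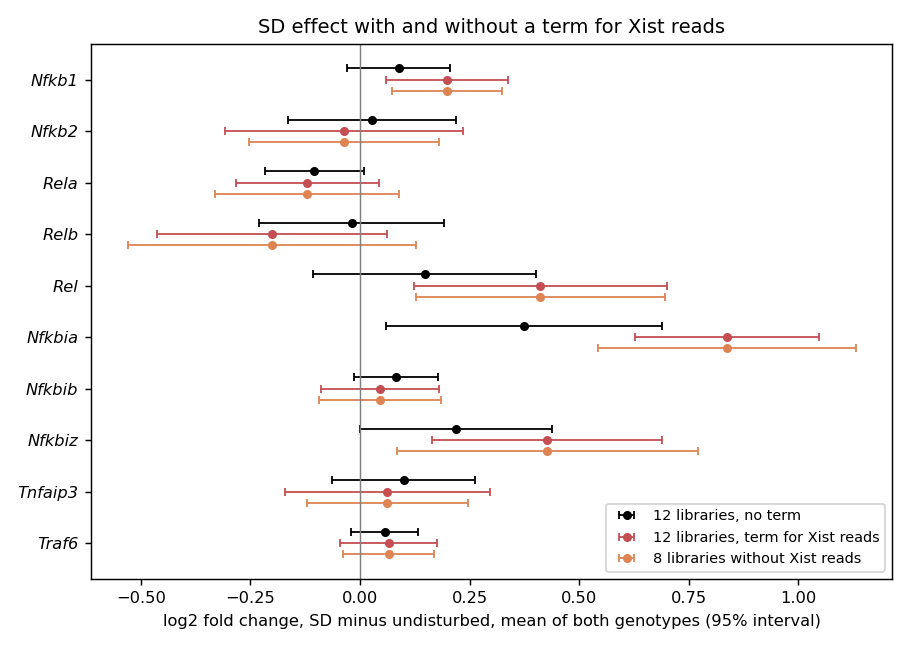
SD effect averaged over both genotypes as a log2 fold change with its 95% interval, for each member, in the fit of 12 libraries without a term for Xist reads, with that term, and in the 8 libraries without Xist reads. The estimate for Nfkbia moves from 0.37 to 0.84, and those for Rel, Nfkbiz and Nfkb1 also move up, whereas Traf6 and Rela stay near their first values. With that term and in the 8 libraries the estimates are equal by construction.

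Immediate early genes, which neurons switch on within minutes of activity, divided the undisturbed libraries along the same line as Nfkbia. The summed normalized counts of 12 such genes were 28626 in CTL-WT 1 against 56167 and 73542 in CTL-WT 2 and 3, and 33824 in CTL-AcPbKO 3 against 46307 and 66048 in CTL-AcPbKO 4 and 5. They were 62136 to 68538 in SD-WT and 55539 to 65455 in SD-AcPbKO, so the 2 lowest libraries were those with the lowest Nfkbia. In WT none of the 12 was called higher after SD and 2 were called lower, whereas 5 were higher and 1 lower with the Xist term. In AcPb-/- mice 2 were higher and 4 lower without the term and 6 higher and 2 lower with it. Genes induced by glucocorticoids, the adrenal hormones that also induce Nfkbia by textbook accounts, divided them less: the sum over 15 genes was 28127 to 39966 in the undisturbed libraries, lowest in the same 2, and 41961 to 57059 in the SD libraries. Of these 15 genes, 9 rose and 1 fell with SD in each genotype. Over all genes 13.2% rose and 12.2% fell in WT and 14.1% rose and 13.3% fell in AcPb-/- mice, and 19.3% and 24.7% passed with the Xist term. Other lists also set CTL-WT 1 and CTL-AcPbKO 3 apart within their groups. Their summed oligodendrocyte markers were the highest of their groups (136457 and 124101, against 106978 and 113478 in the other CTL-WT and 53954 and 72637 in the other CTL-AcPbKO libraries). Striatal (17780 and 11724), choroid plexus (306 and 522) and red blood cell markers (352 and 427, of which 4 of 5 genes had 0 reads) were likewise highest there, and border macrophage markers (772 and 637) were lowest. Lymphocyte (242 and 119) and microglia markers (20897 and 19908) were also highest there, and endothelial markers (12227 and 12093) were lowest. Astrocyte and cortical excitatory neuron markers were highest there in WT but lowest in AcPb-/- mice. The part of activity, of glucocorticoids, of these cell types and of the difference marked by Xist in the level of Nfkbia was not tested.

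**Figure D4:**
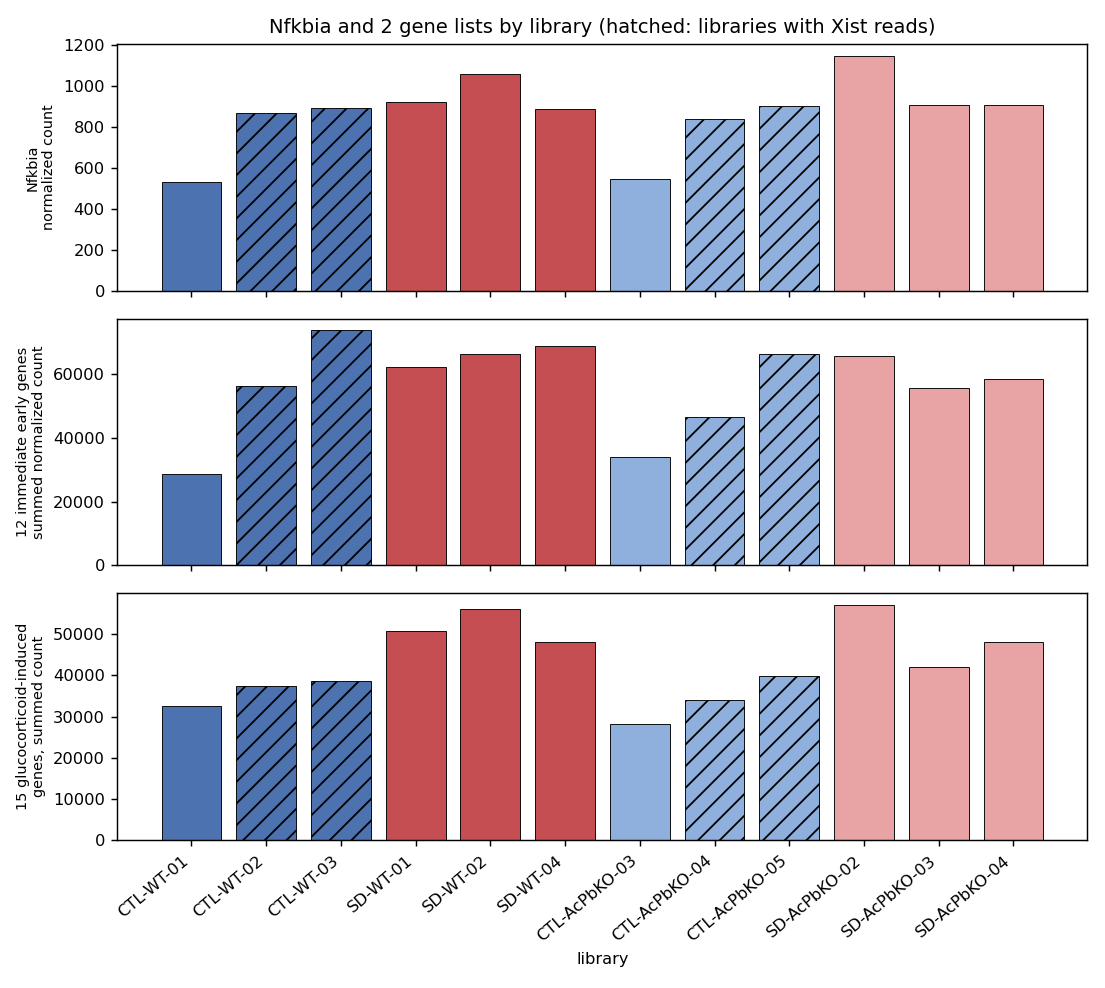
Normalized count of Nfkbia (top) and summed normalized counts of 12 immediate early genes (middle) and 15 glucocorticoid-induced genes (bottom) in each of the 12 libraries, all axes from 0, hatched bars marking libraries with Xist reads. The undisturbed libraries CTL-WT 1 and CTL-AcPbKO 3 have the lowest bar of their group in each panel.

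Genotype was compared next, first in undisturbed mice. None of the 10 members passed, nor did nearly any gene: 0.0197% of 20273 did, which is 4 genes. No member had an unadjusted p under 0.05 (8.53% of all genes did), none had groups that did not overlap (14.4% of all genes did), and DESeq2 and edgeR called 0. The largest estimate was that of Rel, lower in AcPb-/- mice by a log2 change of -0.40 ± 0.19 (95% interval from -0.83 to 0.03, adjusted p = 0.615). Tnfaip3 had 0.20 ± 0.12 (adjusted p = 0.667) and Nfkbiz 0.18 ± 0.14 (adjusted p = 0.727). The estimate for Nfkbia was 0.00 ± 0.22, and its interval from -0.50 to 0.50 leaves room for a 1.4-fold difference in either direction. For Traf6 the interval was from -0.12 to 0.14.

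After SD, none of the 10 members passed between the genotypes, where 0.0145% of 20621 genes did, and DESeq2 and edgeR called 0. Nfkbib alone had an unadjusted p under 0.05 (6.13% of all genes did), with a log2 change of -0.21 ± 0.07 (AcPb-/- minus WT, adjusted p = 0.712). Nfkbib and Rel were lower and Traf6 was higher in all SD-AcPbKO libraries than in all SD-WT libraries, 3 of 10 members where 11.4% of all genes had groups that did not overlap. The log2 changes were -0.25 ± 0.14 for Rel (adjusted p = 0.868) and 0.06 ± 0.06 for Traf6 (adjusted p = 0.923). Nfkbia differed by 0.04 ± 0.11.

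The SD effects of the genotypes were compared by the interaction (SD effect in AcPb-/- minus SD effect in WT) in the fit of 12 libraries. No gene of 20978 passed in limma (0.0%), 839 genes or 4.0% had an unadjusted p under 0.05, and DESeq2 and edgeR called 1 and 0 genes, none of them a member. Among the members, Nfkbib alone was under that unadjusted level, with an interaction of -0.22 ± 0.09 (95% interval from -0.41 to -0.03, limma adjusted p = 0.986). For Tnfaip3 it was -0.30 ± 0.15 (95% interval from -0.63 to 0.02, adjusted p = 0.986). These are the 2 members that were higher in every SD-WT library than in every CTL-WT library and were not so in AcPb-/- mice, and the difference of the effects did not pass the threshold for either. For Nfkbia the interaction was 0.04 ± 0.29, an interval from -0.59 to 0.67.

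SD-AcPbKO against CTL-WT, a comparison that shares its libraries with those above, gave 0 of 10 members where 27.7% of 20560 genes passed. Nfkbia, Nfkbiz, Tnfaip3 and Traf6 were higher in every SD-AcPbKO library than in every CTL-WT library. Of all genes, 42.4% had groups that did not overlap, counted in either direction. Nfkbiz had the smallest adjusted p, with a log2 change of 0.33 ± 0.13 (adjusted p = 0.08), followed by Nfkbia with 0.40 ± 0.18 (adjusted p = 0.136), and Nfkbiz was the member with an unadjusted p under 0.05 (39.5% of all genes had one). With the Xist term Nfkbia (0.86, adjusted p = 0.000749) and Nfkbiz (0.54, adjusted p = 0.0207) passed, as did 22.3% of genes. Without the Xist libraries Nfkbia did (0.88, adjusted p = 0.0448), as did 6.35% of genes.

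The rest of the pathway is given by lists of 20 IkB kinases and adaptors, 19 further inhibitors and feedback regulators and 30 textbook target genes. Of the 20 kinases and adaptors, 6 rose and 3 fell with SD in WT, where 13.2% of all genes rose and 12.2% fell, and the list's median log2 change was 0.10 (-0.0039 over all genes). Those that rose were Traf3, an adaptor that restrains the non-canonical branch (0.46 ± 0.05, adjusted p = 0.000585), Tab2, Myd88, Irak2, Tab3 and Ikbkb, a catalytic IkB kinase. Those that fell were Tradd, the adaptor of the TNF receptor (-0.59 ± 0.15, adjusted p = 0.0156), Ikbkg, the regulatory subunit of the IkB kinase (-0.43 ± 0.06, adjusted p = 0.000962), and Traf2. In AcPb-/- mice, where 14.1% of all genes rose and 13.3% fell, 6 rose, namely Myd88, Irak2, Traf3, Tab2, Tab3 and Ikbkb, and 2 fell, Tradd (-0.78 ± 0.17, adjusted p = 0.0117) and Ikbkg (-0.45 ± 0.07, adjusted p = 0.00224). Myd88, the adaptor next to the interleukin-1 receptor, had a log2 change of 0.48 ± 0.12 (adjusted p = 0.0213) there. Beyond the largest changes, these genes are named after their values were seen, to account for the counts. Thus Ikbkb was called higher and Ikbkg lower after SD in both genotypes, and Traf6, the adaptor between Irak2 and that kinase, was called in neither.

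These calls depended on the libraries. With the Xist term 6 kinases and adaptors were higher and 2 lower in WT, and 7 were higher and 3 lower in AcPb-/- mice, but not all the genes were the same. In WT Tradd (-0.47, adjusted p = 0.123), Myd88 (0.44, 0.0809), Traf2 (-0.28, 0.087) and Tab3 (0.28, 0.052) lost their call, and in AcPb-/- mice Irak2 did (0.33, 0.0522). Without the Xist libraries Traf3 remained in WT (0.46, adjusted p = 0.0458) and Ikbkg in AcPb-/- mice (-0.39, adjusted p = 0.0436), besides Tab1 lower in the latter, where 3.27% and 10% of all genes passed. The log2 changes of Ikbkb, 0.26 in WT (adjusted p = 0.06) and 0.21 in AcPb-/- mice (adjusted p = 0.0646), and of Ikbkg in WT, -0.44 (adjusted p = 0.0531), were as large as in all libraries but missed the threshold. Without SD-AcPbKO 4, the library with choroid plexus RNA, Traf3 was higher and Ikbkg and Tradd were lower in AcPb-/- mice and no other gene of this list passed. For this list and those below, the loss of a library and of its choroid plexus RNA cannot be told apart there. Over all genes the count past the threshold in this comparison ranged from 0 to 6485 over the alternatives (5633 in the main test). The share of all genes passing without SD-AcPbKO 4 is not given here. Calls lost without it are therefore not read as particular to this list or those below.

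Of the 19 further inhibitors and regulators, 1 rose and 1 fell in WT and 4 rose and 1 fell in AcPb-/- mice. Among all genes, 13.2% rose and 12.2% fell in WT, and 14.1% rose and 13.3% fell in AcPb-/- mice. The list medians were 0.15 and 0.09, against -0.0039 and 0.014 over all genes. Pdlim2, a ubiquitin ligase that removes nuclear p65, fell from 363 ± 42.0 to 188 ± 14.3 normalized counts in WT (standard deviation, n = 3 libraries each, log2 change of -0.94 ± 0.12, adjusted p = 0.000844). Pdlim2 also fell in AcPb-/- mice, from 261 ± 85.2 to 143 ± 23.4 (-0.83 ± 0.22, adjusted p = 0.0251). Pdlim2 was past the threshold in both genotypes with the Xist term (-1.29 and -1.18) and without the Xist libraries (-1.13 and -1.34), but not without SD-AcPbKO 4. N4bp1, a regulator of the IkB kinase, rose in both genotypes (0.37 ± 0.06, adjusted p = 0.00172, in WT and 0.40 ± 0.06, adjusted p = 0.00221, in AcPb-/- mice). Tax1bp1 and Itch, partners of A20, and Birc2, a ubiquitin ligase at the TNF receptor, rose in AcPb-/- mice by log2 changes of 0.25, 0.19 and 0.23. With the Xist term these genes kept their call (0.27, 0.20 and 0.23). Without the Xist libraries they lost it, at log2 changes of 0.33, 0.20 and 0.20, and N4bp1 lost its call in WT (0.39). Without SD-AcPbKO 4, N4bp1 alone of this list passed in AcPb-/- mice, which is not read as particular to the list.

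Of the 30 target genes, 3 rose and 1 fell in WT and 2 rose and 1 fell in AcPb-/- mice, where 25.4% and 27.4% of all genes passed in either direction. The list's medians were 0.23 and 0.10, against -0.0039 and 0.014 over all genes. Ptgs2, which encodes the inducible cyclooxygenase and is also an activity-induced gene of cortical neurons, rose from 782 ± 76.7 to 1536 ± 170 normalized counts in WT (0.97 ± 0.10, adjusted p = 0.000293). Ptgs2 likewise rose in AcPb-/- mice, from 786 ± 162 to 1619 ± 392 (1.03 ± 0.20, adjusted p = 0.0069). Ier3, an early response gene, rose by 0.46 ± 0.13 in WT (adjusted p = 0.0241) and by 0.51 ± 0.10 in AcPb-/- mice (adjusted p = 0.00802). Cd83, a surface protein of activated immune cells, fell, with log2 changes of -0.42 ± 0.11 in WT (adjusted p = 0.0187) and -0.32 ± 0.10 in AcPb-/- mice (adjusted p = 0.0463). Lcn2, named after its value was seen and known as a secreted iron-binding protein of neutrophils and reactive glia, also rose in WT, at 7.82, 4.35 and 5.76 normalized counts in CTL-WT and 122, 18.8 and 56.4 in SD-WT. It was 3 to 176 reads in those libraries. The other 26 genes in WT and 27 in AcPb-/- mice did not pass. With the Xist term Ptgs2 (1.13, limma adjusted p = 0.00408), Ier3 (0.58, 0.0157) and Cd83 (-0.55, 0.00716) passed in WT. They also passed with it in AcPb-/- mice (1.18, 0.62 and -0.46). Leaving the Xist libraries out keeps 1 undisturbed library per genotype. No gene of the list then kept its call in WT, with log2 changes of 0.94 for Ptgs2, 0.53 for Ier3 and -0.62 for Cd83. In AcPb-/- mice Cd83 lost its call there (-0.39), and Ptgs2 (1.37) and Ier3 (0.67) kept theirs. In AcPb-/- mice without SD-AcPbKO 4 Cd83 no longer passed. In the genotype comparisons 0 of the genes in these lists passed, in undisturbed mice or after SD.

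Microglia, the brain's resident macrophages and a source of several of these messages, had summed counts over 10 markers of 19678 to 20897 in CTL-WT, 18248 to 19858 in SD-WT, 19018 to 19908 in CTL-AcPbKO and 14356 to 17195 in SD-AcPbKO, with no marker at 0. Of the 10, 1 rose and 2 fell in WT and 5 fell in AcPb-/- mice. For this list and those that follow, 13.2% of all genes rose and 12.2% fell in WT. In AcPb-/- mice 14.1% rose and 13.3% fell. Neutrophil markers, 7 genes, summed to 28 to 37 in CTL-WT and 45 to 139 in SD-WT, which did not overlap. Of all genes taken singly, 40.2% did not overlap between these groups. In WT 2 of the 7 rose, as did Lcn2. The neutrophil markers summed to 47 to 91 in CTL-AcPbKO and to 35, 164 and 996 in SD-AcPbKO, the last in SD-AcPbKO 4, and none passed there. Endothelial markers, 7 genes, summed to 12093 to 13511 undisturbed and to 12308 to 15722 after SD, and 3 rose and 1 fell in each genotype. Of 6 oligodendrocyte markers 4 fell in WT and 1 in AcPb-/- mice. The part of these cell types in the level of the members was not tested.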

How the data were processed

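Total RNA of somatosensory cortex was made into libraries with the TruSeq Stranded mRNA kit. The submitters' processing notes name bcl2fastq, HISAT2 2.2.1, featureCounts, DESeq2 1.31.16 and mm10, whereas the methods name HTSeq for counting, and the annotation and strand setting are not given in the sources used here. The authors deposited 5 tables of 24421 genes, each a pair of groups, whose per-library signal is the read count divided by a DESeq2 size factor. Their columns of mean, log2 fold change, standard error, score, p-value and adjusted p-value were not used. Undoing the size factors gave whole reads (within 0.01) for 100.0% of 732630 values. Of 16 labelled samples 4 have no column and were not analysed here.

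limma 3.58.1 (R 4.3.3) with a variance trend was run on log2(deposited value + 1) over genes with at least 1 read, in the 6 libraries of a table, and p-values were adjusted by Benjamini-Hochberg with a threshold of 0.05. Per-library values, the interaction and the fits of 4 groups used all 12 libraries scaled together by median of ratios. edgeR 4.0.16, the planned test for counts, and DESeq2 1.42.0 were run on recovered reads as alternatives. Libraries of a group differed by more than sampling noise, and the labels count mice per group, so libraries are taken as mice. The fits recovered most of the larger changes put into 200 genes of simulated counts. All those changes exceeded the estimates of the members in the main tests. The simulated noise was also lower than the scatter of Nfkbia in undisturbed mice, so the power to detect changes in the members is not shown. Positions and exon lengths are from GENCODE M21. Of the other lists, genes past the threshold with the 3 largest changes and a mean of at least 50 were named, and others where a count was small. No gene was sought for likeness to a member, since none passed in the main tests. The members, lists and Xist term were chosen with earlier results of these data known.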

Additional observations from a re-analysis of the deposited data

How the results depend on the processing

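Of 88 recomputed counts of members past the threshold (leaving out single libraries aside), 76 stayed at the value reported. With the Xist term the count became 2 for SD in WT, 2 in AcPb-/- mice, 2 for SD-AcPbKO against CTL-WT and 4 for SD averaged over both genotypes. Without the Xist libraries it became 1 in AcPb-/- mice, 1 for SD-AcPbKO against CTL-WT and 3 for the average. It was 1 for SD in WT with all 4 groups in 1 fit, and 1 for the average with a minimum mean of 10, DESeq2, edgeR or thinned reads. Leaving out 1 library gave counts from 0 to 2 for SD in WT, from 0 to 1 for the average, and 0 elsewhere. For the average, Nfkbia passed without CTL-WT 2, CTL-WT 3 or CTL-AcPbKO 5, Rela without SD-WT 1 and Nfkbiz without SD-WT 4. The cause was not tested.

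Of 880 log2 changes of members, 20 changed sign, none of them called. With the Xist term and without the Xist libraries, Relb in WT became -0.15 and -0.19, and Rel in SD-AcPbKO against CTL-WT became 0.086 and 0.071. Nfkb2 in the average became -0.036 in both, where the averaged estimates are equal by construction. The interaction of Nfkbia became -0.0001 without the Xist libraries. With thinned reads Nfkb2 became 0.042 in WT, 0.041 in SD-AcPbKO against SD-WT and 0.088 in SD-AcPbKO against CTL-WT, and Rela and Tnfaip3 became 0.039 and 0.027 in SD-AcPbKO against SD-WT. In undisturbed mice Nfkbia (AcPb-/- minus WT) was -0.0029 when centred on the library median, -0.002 in DESeq2 and -0.0079 in edgeR, and Nfkb2 after SD was 0.0002 in DESeq2 and 0.0013 in edgeR.

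Leaving out 1 library turned 44 of 540 signs, none of them called. For SD in WT the log2 change then ranged from -0.069 to 0.018 for Nfkb2, from -0.051 to 0.20 for Rel, from -0.14 to 0.0068 for Rela and from -0.060 to 0.14 for Relb. In AcPb-/- mice it ranged from -0.0025 to 0.17 for Nfkb2, from -0.068 to 0.0049 for Nfkbib, from -0.14 to 0.032 for Relb and from -0.15 to 0.048 for Tnfaip3. Between undisturbed genotypes it ranged from -0.10 to 0.016 for Nfkb1, from -0.24 to 0.22 for Nfkbia, from -0.023 to 0.052 for Nfkbib and from -0.16 to 0.021 for Relb. Between genotypes after SD it ranged from -0.022 to 0.034 for Nfkb1, from -0.038 to 0.044 for Nfkb2, from -0.073 to 0.11 for Nfkbia, from -0.11 to 0.12 for Nfkbiz and from -0.078 to 0.064 for Rela. In SD-AcPbKO against CTL-WT it ranged from -0.068 to 0.018 for Nfkb2 and from -0.035 to 0.0099 for Nfkbib. The interaction ranged from -0.0035 to 0.12 for Nfkb1, from -0.19 to 0.28 for Nfkbia and from -0.20 to 0.0016 for Relb. The average ranged from -0.018 to 0.066 for Nfkb2 and from -0.063 to 0.036 for Relb.

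Same-numbered libraries had deviations from their group means that correlated, across 16062 genes, at 0.102 and -0.075 for SD in WT, at -0.141 and -0.018 in AcPb-/- mice, at 0.004 and 0.227 in SD-AcPbKO against CTL-WT, at -0.427 between undisturbed genotypes, and at 0.216 and 0.231 between genotypes after SD. No comparison had 3 such pairs and the labels tie no number to a shared litter, batch or day, so the numbers were not taken to pair the samples. With the replicate number as a block 0 members passed in any comparison that allowed it, and 0 genes passed for SD in either genotype or between genotypes after SD. With this block Relb in WT was -0.10, Rela in SD-AcPbKO against SD-WT was 0.052 and Nfkbib in SD-AcPbKO against CTL-WT was 0.015. CTL-AcPbKO and CTL-WT share only the number 3, so no block was used there. Over all genes, the count past the threshold ranged from 0 to 6222 for SD in WT (5186 as reported) and from 0 to 6485 in AcPb-/- mice (5633). It was 2360 and 2656 at an adjusted p of 0.01, 2536 and 3608 without a variance trend, and 680 and 2080 without the Xist libraries. Between undisturbed genotypes it was 94 in DESeq2 and 8 in edgeR against 4, and after SD it was 97 and 9 against 3. With 3 libraries a group, 95% intervals for Nfkbia span about 0.4 on either side in the SD comparisons, so smaller changes could go undetected.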
